A study of Homo sapiens with 3 samples.

Results

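The p53 response genes MDM2, BAX, BBC3, GDF15, SESN1, SESN2, PHLDA3, RRM2B and BTG2 were examined for chromatin binding of RBPJ and L3MBTL3. They were chosen by name, as 9 of 19748 protein-coding genes, and every deposited peak was taken whose summit lay within 50 kb of one of their transcription start sites (TSS). This gave 11 of 2926 RBPJ peaks and 0 of 444 L3MBTL3 peaks. Chromatin immunoprecipitation followed by sequencing had been done in MDA-MB-231 cells, a human breast cancer line known to carry mutant p53, grown in serum-containing medium with no treatment named. The RBPJ library used an antibody against RBPJ (CBF1, RBPSUH), which binds DNA for the Notch pathway, and the L3MBTL3 library an antibody against L3MBTL3, a reader of methylated lysine. An input DNA library, labelled as having no antibody, was not analysed here. The series asks where RBPJ and L3MBTL3 occur together. Each antibody had 1 library, so the values below have no replicate error. The labels give 30000000 to 40000000 aligned reads per sample as a range for all samples, and the reads behind single peaks are unknown. The files hold no measure of p53 or of gene expression.

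As background, p53 is a transcription factor that is stabilised by DNA damage and other stress. It binds response elements made of a pair of similar 10-base sequences and induces genes that halt the cell cycle, start apoptosis, adjust metabolism and repair DNA. Its own degradation by the product of MDM2, one of its targets, closes the loop. RBPJ binds a different sequence, recruits corepressors in the absence of Notch signalling, and activates genes when the cleaved Notch receptor joins it.

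Of the 9 genes, 5 (BBC3, GDF15, PHLDA3, RRM2B and BTG2) had an RBPJ summit within 50 kb, or 55.6%, beside 21.8% of all protein-coding genes. Within 10 kb these were again 5 genes, beside 11.3% of all. Within 1 kb they were 4, all but PHLDA3, beside 8.91% of all. MDM2, BAX, SESN1 and SESN2 had none within 50 kb or within 100 kb. No test was made of these shares, since the genes had been chosen with earlier results of these data known. Of the 11 peaks, 5 lay closer to the named p53 response gene than to any other protein-coding gene, 1 for each of the 5 genes. The other 6 lay within 0.5 kb of the TSS of a neighbour, CCDC9, INAFM1 or SSBP4.

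**Figure D1:**
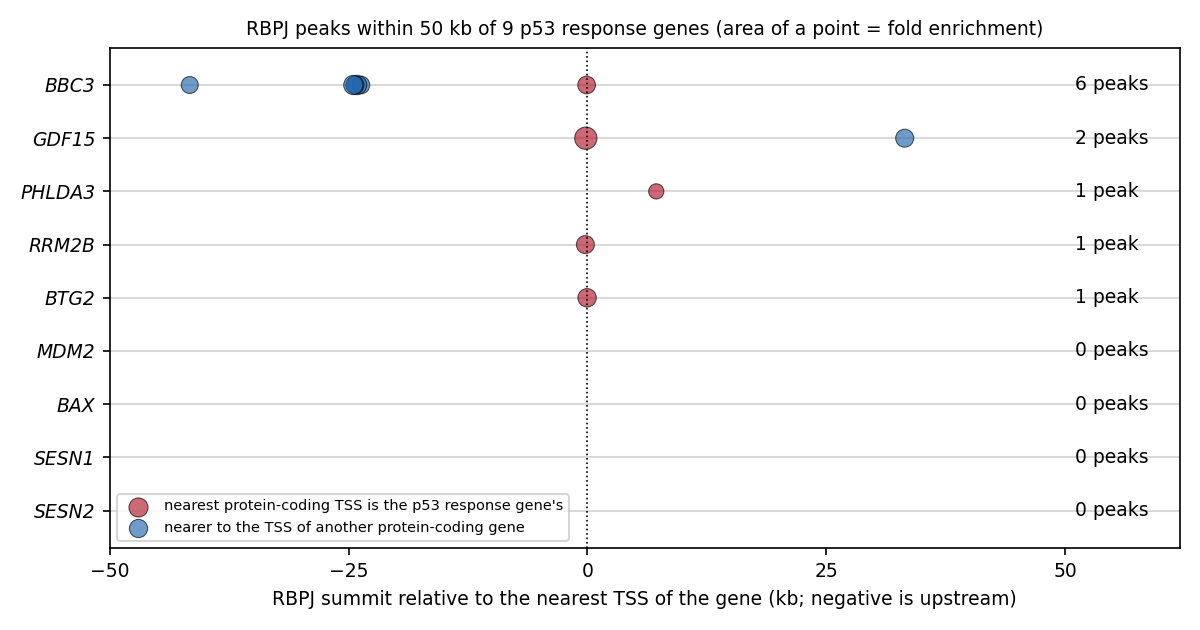
RBPJ summits within 50 kb of each p53 response gene, by distance in kb from the gene's nearest TSS (negative is upstream), with point area proportional to fold enrichment. One summit each of BBC3, GDF15, RRM2B and BTG2 sits at the TSS, that of PHLDA3 lies 7.20 kb downstream, the other 6 belong nearer to other genes, and 4 genes have 0 peaks.

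The sequences of 3 of the gene-nearest peaks, those of GDF15, BTG2 and PHLDA3, were read from the plus strand of hg19 to display which motif words they do and do not contain. Stretches in exons were left out, so of the BTG2 peak only the part before its first exon appears. Capitals mark matches to the p53 half-site, the AP-1 word or the E-box, which are described further on, and the RBPJ word is in none of the 3. The GDF15 stretch is the whole peak chr19:18485181-18485457. The BTG2 stretch is chr1:203274566-203274618. The PHLDA3 stretch, chr1:201431099-201431205, runs 42 bp past the end of the peak to include a p53 half-site.
GDF15: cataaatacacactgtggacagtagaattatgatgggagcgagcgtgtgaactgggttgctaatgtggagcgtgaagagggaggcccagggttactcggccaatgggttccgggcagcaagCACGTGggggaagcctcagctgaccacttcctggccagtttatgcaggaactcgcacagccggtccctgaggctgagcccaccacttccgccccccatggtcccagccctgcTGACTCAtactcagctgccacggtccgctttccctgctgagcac
BTG2: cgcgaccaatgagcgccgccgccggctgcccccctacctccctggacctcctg
PHLDA3: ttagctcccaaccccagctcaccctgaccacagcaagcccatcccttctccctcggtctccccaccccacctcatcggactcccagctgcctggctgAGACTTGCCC

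GDF15 encodes a secreted stress cytokine of the TGF-beta family that signals to the brain to lower appetite. Its RBPJ peak had a fold enrichment of 8.18 and a -log10 q of 11.8, and 97.9% of all RBPJ peaks had a lower fold. Fold enrichment is the authors' ratio of the signal at the summit to local background. The summit lay 174 bp upstream of the TSS, outside protein-coding genes, with the next protein-coding TSS, that of PGPEP1, 17.1 kb away. This was the strongest of the 11 peaks by fold, and the widest, at 277 bp. GDF15 was also the 1 gene of the 9 with no CpG-rich TSS: in the 1 kb around its 3 TSS the CpG content was 0.385 to 0.446 of that given by base composition, below the 0.6 used here for CpG-rich. Among all genes without a CpG-rich TSS, 13.4% had an RBPJ summit within 50 kb, and among CpG-rich genes 25.4% did. A second peak, fold 5.33, lay 33.2 kb downstream of a GDF15 TSS but 28 bp from the TSS of SSBP4, in its UTR.

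BBC3 encodes PUMA, a BH3-only protein that triggers apoptosis. Its own peak had a fold of 5.14 and a -log10 q of 3.41, and 52.4% of RBPJ peaks had a lower fold. The summit lay 90 bp upstream of one BBC3 TSS, which is CpG-rich (ratio 0.842), and 1477 bp downstream of the other, which is not (0.358), so it falls in an intron of the longer transcripts. The remaining 5 peaks within 50 kb belonged to neighbours on the opposite strand. Of these, 4 lay within 0.5 kb of a TSS of CCDC9, 23.7 to 24.5 kb upstream of the outer BBC3 TSS, with folds of 5.12, 6.18, 5.33 and 6.08. The fifth, fold 4.74, lay 486 bp from the TSS of INAFM1 and 41.6 kb from the outer one of BBC3. The gene with the most RBPJ peaks within 50 kb had 1 at its own promoter, and the 2 peaks of its window with a -log10 q of at least 5 were both at CCDC9.

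**Figure D2:**
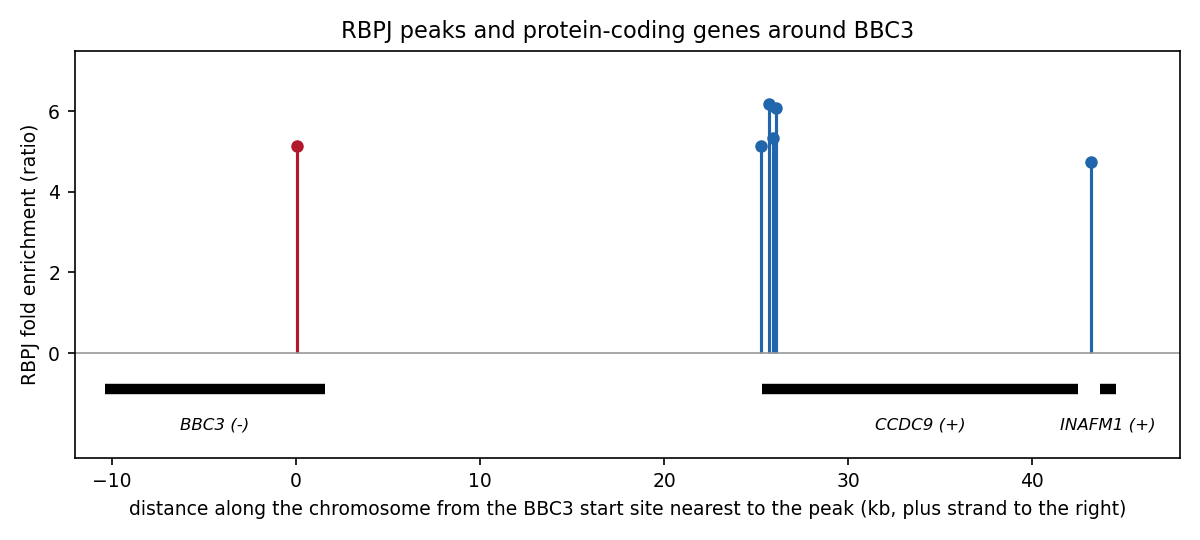
RBPJ peaks (lines with points, height is the fold enrichment as a ratio) and protein-coding genes (black bars, strand in brackets) by distance in kb from the BBC3 TSS nearest to the first peak. The peak at 0.09 kb is that of BBC3, 4 peaks between 25.3 and 26.1 kb stand at CCDC9, and 1 peak at 43.2 kb stands at INAFM1.

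The CCDC9 peak of fold 6.18 (chr19:47760068-47760293, intron of CCDC9, 359 bp from a TSS) is shown whole, on the plus strand of hg19. It was taken because it has the highest fold in the BBC3 window. The CCDC9 peak of fold 6.08 had a higher -log10 q, 5.94 beside 5.69. The 1 GC box within the peak shown is in capitals.
CCDC9: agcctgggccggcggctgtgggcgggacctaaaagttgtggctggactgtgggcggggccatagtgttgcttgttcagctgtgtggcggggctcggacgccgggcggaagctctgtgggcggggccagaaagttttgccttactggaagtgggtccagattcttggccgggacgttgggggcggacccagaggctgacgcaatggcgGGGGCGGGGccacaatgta

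BTG2 encodes an antiproliferative protein of the BTG/TOB family that promotes mRNA deadenylation. Its peak (chromosome 1, 203274566 to 203274661) had a fold of 5.59, a -log10 q of 3.59 and a summit 40 bp upstream of the single protein-coding TSS. By fold it stood above 69.5% of RBPJ peaks. The nearest other protein-coding gene, FMOD, was 45.6 kb away.

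PHLDA3 encodes a pleckstrin homology domain protein that inhibits AKT. Its peak (chromosome 1, 201431099 to 201431163, 65 bp wide) was the weakest and the narrowest of the 11, with a fold of 3.81 and a -log10 q of 2.03. Of all RBPJ peaks, 5.91% had a lower fold. The summit lay 7.20 kb downstream of the TSS, beyond the end of the gene, and PHLDA3 was the nearest protein-coding gene. A noncoding gene had a TSS closer, at 3159 bp. This peak is the 1 of the 11 that was not within 1 kb of a protein-coding TSS.

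RRM2B encodes the small ribonucleotide reductase subunit that supplies deoxynucleotides for repair and for mitochondrial DNA. Its peak (chromosome 8, 103251374 to 103251465) had a fold of 5.31 and a -log10 q of 5.74, above 57.8% of RBPJ peaks by fold. The summit lay 218 bp upstream of the nearest of 3 CpG-rich TSS.

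**Figure D3:**
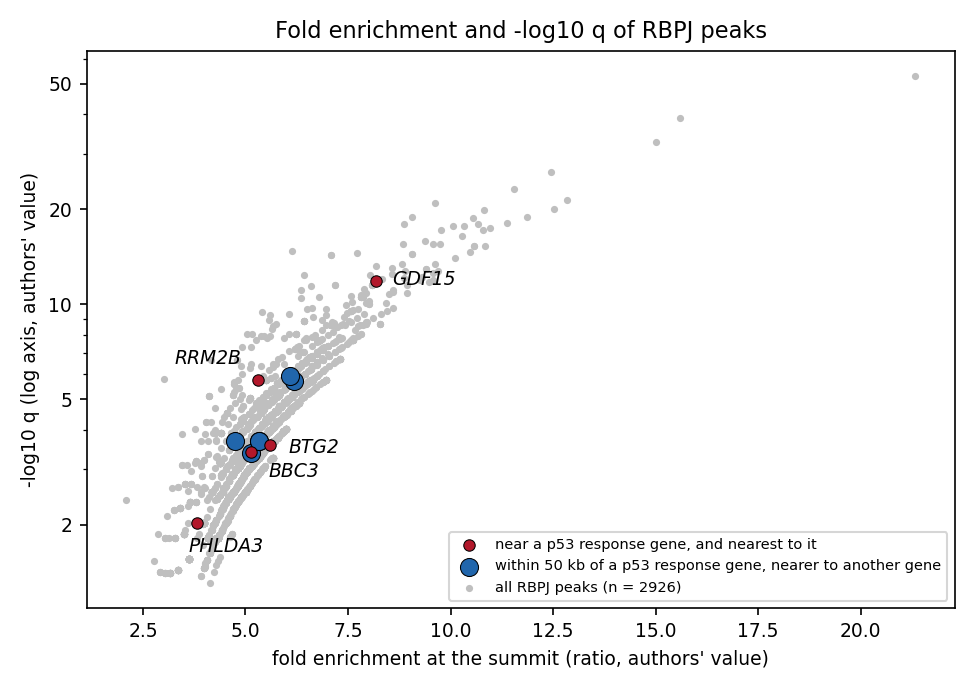
Fold enrichment (ratio, horizontal) and -log10 q (vertical, log axis) of all 2926 RBPJ peaks (grey), with the 11 within 50 kb of p53 response genes in colour, by whether the p53 response gene is the nearest. GDF15 at a fold of 8.18 stands in the upper tail, PHLDA3 at 3.81 near the lower edge, and BBC3, BTG2 and RRM2B between 5.14 and 5.59.

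Folds that differ by little cannot be ordered. Of the RBPJ peaks, 79.4% had the same fold, p and q as at least 1 other peak, so the values fall on steps. The RBPJ peak of BBC3 shared all 3 values with 13 other peaks, that of RRM2B with 8 and that of PHLDA3 with 51. The GDF15 values were shared with no other peak. The median fold over the 11 peaks was 5.33, beside 5.08 over the whole list, and 9 of the 11 were at or above the list median. These 11 include the 6 peaks nearer to a neighbour's TSS. The 5 nearest to a p53 response gene had folds of 3.81, 5.14, 5.31, 5.59 and 8.18.

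MDM2, whose product is the ubiquitin ligase that degrades p53, had its nearest RBPJ summit 3176 kb away. SESN1, a sestrin that restrains growth signalling through mTORC1, had it 4537 kb away. SESN2, a related sestrin, had it 322 kb away, and BAX, a pore-forming protein of mitochondrial apoptosis, 165 kb away, at the promoter of PPFIA3. All 4 genes have CpG-rich TSS, with ratios of 0.736 to 0.912. Of their 14 annotated TSS, none had an RBPJ summit within 100 kb. In hg19, MDM2 spans 69201957 to 69239324 on chromosome 12, BAX 49458132 to 49465055 on chromosome 19, SESN1 109305512 to 109416049 on chromosome 6 and SESN2 28586029 to 28609002 on chromosome 1.

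The surroundings of the 9 genes differed in how many RBPJ peaks they held. Within 5 Mb of its TSS, SESN1 had 1 RBPJ peak and MDM2 had 2, and 0 of 53 and 0 of 49 other genes around them had a summit within 50 kb. BAX and SESN2 lay in regions with 46 and 19 RBPJ peaks, where 38.4% and 19.6% of the other genes had a summit. Of the genes with a peak, GDF15 had 62 RBPJ peaks within 5 Mb, BBC3 47, RRM2B 24, BTG2 14 and PHLDA3 13. All protein-coding genes had a median of 11 (quartiles 4 and 20). By chromosome, 39.3% of genes on chromosome 6 and 37.3% on chromosome 19 had an RBPJ summit within 50 kb, beside 16.3% on chromosome 12. SESN1 lay in a stretch nearly without peaks on a chromosome rich in them. BAX and BBC3, both on chromosome 19, had 46 and 47 RBPJ peaks within 5 Mb, and BBC3 had a peak of its own while BAX had none. Their 5 Mb windows overlap, as do those of PHLDA3 and BTG2, so peaks in the common stretch count for both genes. What the uneven spread of peaks reflects, and its part in which p53 response genes had a peak, was not tested.

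**Figure D4:**
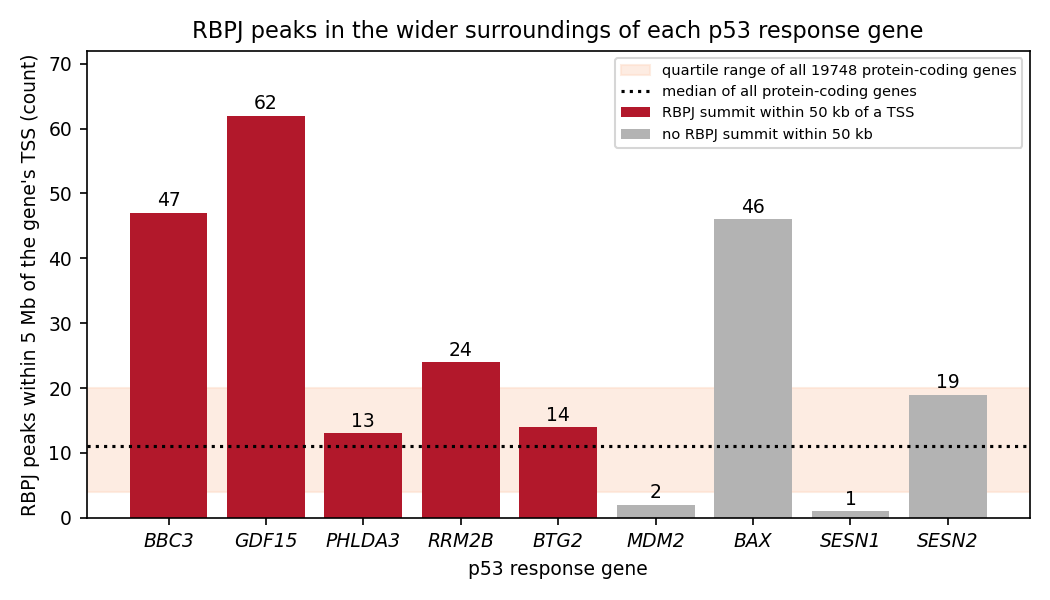
Number of RBPJ peaks within 5 Mb of the TSS of each p53 response gene, for genes with (red) and without (grey) an RBPJ summit within 50 kb. SESN1 and MDM2 have 1 and 2 peaks, below the lower quartile of all protein-coding genes (shaded band, 4 to 20), while BAX has 46 without a peak of its own. The windows of BAX and BBC3 overlap and share peaks, as do those of PHLDA3 and BTG2.

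The L3MBTL3 list held no peak near the 9 genes. None had an L3MBTL3 summit within 50 kb or 100 kb, where 2.89% of all protein-coding genes had one within 50 kb, which is the background for the 0 of 9. The nearest L3MBTL3 summits lay 216 kb from BAX, at the promoter of RASIP1 (fold 9.03), 257 kb from GDF15 (5.18) and 417 kb from RRM2B (5.23). For the other 6 genes the distance was 1215 kb (BBC3) to 8186 kb (SESN2). Of the 11 RBPJ peaks, 0 overlapped an L3MBTL3 peak, beside 4.37% of all RBPJ peaks. Of all protein-coding genes, 1.01% had an overlapping RBPJ peak within 50 kb. Signal below the authors' threshold is not in either list.

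Motif words were counted on both strands within 100 bp of the 11 summits. The high-affinity RBPJ word (CGTGGGAA or TGTGGGAA) was in 0 of 11 windows, beside 8.51% of all RBPJ peaks, 5.60% of RBPJ peaks within 1 kb of a TSS and 1.46% of all TSS windows. Its core TGGGAA, which the longer word contains, was in 1 of 11 windows, that of BTG2, where it lay outside the peak, 88 bp from the summit. The core was in 29.5% of all RBPJ peaks, 21.5% of those within 1 kb of a TSS and 14.8% of all TSS windows. Of windows centred 2 kb to either side of the summits, 3 of 22 held it. The AP-1 word (TGACTCA or TGAGTCA), bound by FOS and JUN proteins, was in 1 of 11, that of GDF15, inside the peak and 50 bp from the summit. All RBPJ peaks held it in 11.2% of cases, and those within 1 kb of a TSS in 3.78%. The full CRE word TGACGTCA, bound by CREB and ATF factors, was in 0 of 11, beside 1.57%.

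The GC box, TGACG and the E-box were chosen after the peak sequences had been seen. The GC box (GGGGCGGGG), bound by SP and KLF factors, was in 6 of 11 windows, beside 21.8% of all RBPJ peaks, 29.0% of those within 1 kb of a TSS and 0 of the 22 flanking windows. These were the BTG2 window, that of BBC3 and others within 50 kb of BBC3, at CCDC9 or INAFM1. The matches in a window lay inside its own peak for BBC3 and for the CCDC9 peak of fold 6.08. For the rest they lay outside it. The GC box inside the CCDC9 peak of fold 6.18 lay beyond the window of that peak. It was counted in the window of the neighbouring CCDC9 peak of fold 5.33. TGACG, the first 5 bases of the CRE word, was in 5 of 11 windows, all in the BBC3 window of 50 kb, beside 21.3% of all RBPJ peaks. In these windows TGACG lay inside the window's own peak only for BBC3 itself. The CCDC9 peak of fold 6.18 held a TGACG as well, beyond its window and so not counted. The E-box (CACGTG) was in 2 of 11, those of GDF15 and of 1 CCDC9 peak, beside 6.87%. The windows were GC-rich, from 58.7% at PHLDA3 to 84.1% at BBC3. The part of base composition in these counts was not tested. The windows of 1 pair of neighbouring CCDC9 peaks, with summits 167 bp apart, overlap, and 1 copy of TGACG was counted in both.

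A p53 half-site, the 10-base consensus of which a p53 response element holds a pair, was in 1 of 11 windows. That was the PHLDA3 window, 85 bp from the summit and outside the peak. The half-site was in 3.38% of all RBPJ peaks, 2.19% of those within 1 kb of a TSS and 3.78% of all TSS windows. Of those 22 flanking windows, 2 held it.

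BBC3 is known as a direct p53 target, and pairs of half-sites were also searched. A pair with the C and G of both centres intact, up to 3 mismatches and no spacer was in 1 of the 11 windows, that of BBC3. It was in 3 of 2926 RBPJ peak windows, or 0.103%, and in 0.218% of all TSS windows. The other 2 of the 3 peaks were nearest to TUBB4B (422 bp, fold 4.37) and DUSP5 (87.2 kb, fold 5.66). With a spacer of up to 13 bp the share was 2.36% of RBPJ peaks, and BBC3 remained the 1 of the 11 with a site. The definition was set after the BBC3 sequence had been seen, so these shares describe how rare such a site is and support nothing further. A match is a description of letters, and p53 binding was not measured.

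Of 53 other genes of the p53 pathway, listed by symbol, 14 had an RBPJ summit within 50 kb (26.4%, beside the 21.8% of all genes) and 12 within 10 kb (22.6%, beside 11.3%). None had an L3MBTL3 summit within 50 kb, beside 2.89% of all protein-coding genes. TP63 and TP73, which encode relatives of p53, had no RBPJ summit within 50 kb. The highest fold within 10 kb of a gene in this list was 7.02, for TRIM22, an antiviral protein, but that summit lay 78 bp from the TSS of TRIM5. FBXW7, which encodes the substrate receptor of a ubiquitin ligase, followed with 6.30 at 228 bp upstream. PLK2, a stress-induced kinase, had 5.80 at 110 bp, and PPM1D, the phosphatase that switches off p53, had 5.58 at 5 bp from its TSS. SFN, the checkpoint protein 14-3-3 sigma, had 5.31 at 2.25 kb, and CDKN1A, the cell cycle inhibitor p21, had 5.16 at 1.67 kb downstream of a TSS and a second peak of 3.21 at 26 bp upstream. PLK2 and FBXW7 each had a second, lower peak as well, of 3.81 at 11 bp and of 4.58 at 86 bp from the TSS. The APAF1 summit (5.31), near the gene of the apoptosome scaffold, was 52 bp from the TSS of IKBIP, and the PIDD1 summit (4.58) was 173 bp from that of RPLP2. BCL2L11, which encodes the BH3-only protein BIM, had a fold of 5.04 at 34 bp, and PCNA, the replication clamp, had 4.70 at 106 bp.

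**Figure D5:**
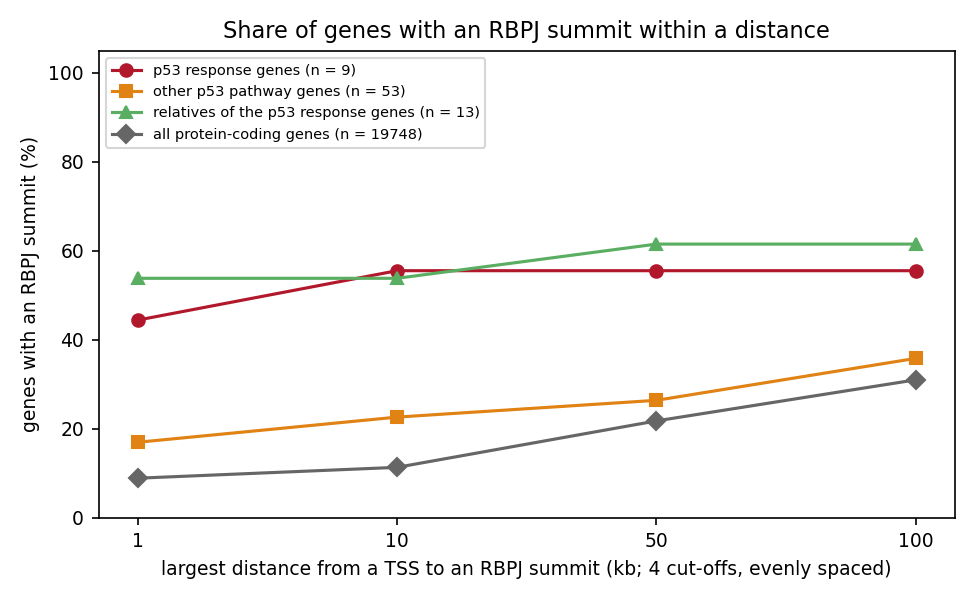
Percent of genes with an RBPJ summit within 1, 10, 50 or 100 kb of a TSS for the 9 p53 response genes, 53 other p53 pathway genes, 13 relatives of the p53 response genes and all protein-coding genes. The p53 response genes stand at 55.6% and all genes at 21.8% at 50 kb, and the relatives at 61.5%. The relatives share 4 genes with the other p53 pathway genes.

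Relatives of the 9 genes were compared by family. Of 13, 8 had an RBPJ summit within 50 kb (61.5%, beside 21.8% of all protein-coding genes). Within 10 kb, 7 had one (53.8%, beside 11.3%). An L3MBTL3 summit within 50 kb was found for 0 of 13, beside 2.89% of all protein-coding genes. The relatives and the other p53 pathway genes share 4 genes, BAK1, BCL2L11, MDM4 and PMAIP1, of which BAK1 and BCL2L11 are counted among the genes with a summit in both lists. The RRM2B peak had a fold of 5.31 at 218 bp upstream, beside 9.31 at 402 bp upstream for RRM2, which encodes the small subunit of ribonucleotide reductase used in S phase. The BTG/TOB family had peaks at BTG3 (6.88, 12 bp from the TSS), BTG1 (6.67, 243 bp, and 5.23, 3 bp) and TOB1 (6.29, 25 bp) as well as BTG2, and none at TOB2. The PHLDA3 peak lay downstream of its gene (3.81), while PHLDA1 had a peak at its TSS (5.41, 62 bp) and another 49.3 kb away (9.37). PHLDA2 had 3 peaks within 50 kb, at 211 bp upstream (4.06), 4.11 kb upstream (5.14) and 44.2 kb downstream (6.03). Besides BBC3, BCL2L11 had a peak among the BH3-only genes listed and PMAIP1 none. For BAX and BAK1, the effectors of mitochondrial apoptosis, no summit lay within 10 kb. Within 50 kb BAX had none, and the strongest for BAK1 (5.42) lay 33.6 kb away, closer to ITPR3. SESN3, like SESN1 and SESN2, had no RBPJ summit within 50 kb. MDM4, like MDM2, had none, and RRM1 had none.

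Just beyond 50 kb, an RBPJ peak at LSM4 (fold 4.18) lay 51.6 kb upstream of GDF15. Another 4 peaks, at the promoter of JUND, an AP-1 subunit gene, lay 92.7 to 93.3 kb upstream of it with folds of at most 5.33, and a peak of fold 3.81 nearest to NAV1 lay 83.0 kb upstream of PHLDA3.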

How the data were processed

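Per the labels' protocols, adaptors were removed (Trimmomatic) and reads mapped by BWA 0.7.15 to hg19. MACS2 is the peak caller that the submitters' processing notes list. Its version, its cutoff and its control sample were not given in the sources used here. The authors deposited 1 peak list per library with a fold enrichment (ratio over local background), a -log10 p, a -log10 q and a score, which equals 10 times the -log10 q truncated. Folds were compared only within a list.

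Genes and TSS came from GENCODE 44 lifted to GRCh37, the same build as hg19, and sequence from that genome, read with pysam 0.24.0. There were 78530 TSS of protein-coding transcripts on chromosomes 1 to 22 and X. The shares of all TSS windows used 78394 windows. Coordinates are 1-based. Overlap meant at least 1 bp. CpG ratios used 1 kb around a TSS. Functions were checked on simulated data. Results are descriptions, with no test, since there was 1 library per antibody and no read count.

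The members and gene lists were chosen with earlier results of these data known. Named genes were all 9 members, the gene nearest to each of their peaks, the 10 other p53 pathway genes with the highest RBPJ fold within 10 kb, and all relatives with a summit within 50 kb; further genes named without a peak were chosen after seeing their values. The p53 full site, GC box, E-box and TGACG words, the counts within 5 Mb and the merging of neighbouring peaks were added after the data were seen. Alternatives were other distances, TSS sets, q and fold thresholds, overlap rules and motif windows. The sequence at the BBC3 peak and some loci are not reported here.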

Additional observations from a re-analysis of the deposited data

How the results depend on the processing

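Of 50 alternatives, 37 left the count within 1.5 times that reported. The 5 p53 response genes with an RBPJ summit became 3 (BBC3, GDF15 and RRM2B) when a -log10 q of 5 or more was required. BBC3 was then counted through the CCDC9 peaks. With that q, 6 of the other p53 pathway genes had a summit in place of 14, and 5 relatives in place of 8. Among these, APAF1, TRIM22 and BAK1 were counted through summits nearer to IKBIP, TRIM5 and ITPR3. PHLDA1 was counted through its peak 49.3 kb away and not through the one at its TSS. Counting genes of every type, 3 peaks in place of 5 were nearest to a p53 response gene. The core TGGGAA was in 1 window, against 0 with 50 bp, 0 in the peaks as deposited, 0 at the stricter q and 5 with 250 bp. The AP-1 word was in 1 window, against 0 with 50 bp and 2 with 250 bp. The p53 half-site was in 1 window, against 0 with 50 bp, 0 in the peaks as deposited and 0 at the stricter q. These follow from the narrower or wider windows and the fewer peaks. The counts of 0 L3MBTL3 peaks, 0 overlaps, 0 high-affinity RBPJ words and 0 CRE words stayed at 0 in every alternative run. Neighbouring peaks merged within 1 kb left 8 regions of 11 peaks. No paired analysis was possible because each antibody had 1 library. The unknown read counts limit the comparison of single folds.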
